A study of Homo sapiens with 5 samples.

Results

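The genes described here are the zinc finger (ZNF) genes of 2 clusters on the long arm of human chromosome 19, at 19q13.12 and 19q13.31. They were chosen by name: 45 symbols were listed, and 43 of them had a row in the deposited table of 14084 rows. Of these, 23 lie in 19q13.12 (hg38, chr19:36182294-37779590) and 20 in 19q13.31 (hg38, chr19:43827292-44500522). ZNF571 and ZNF793 were not analysed here. The samples are HAP1 cells, an established human line with a near-haploid genome that derives from a myeloid leukaemia and grows attached. Ribosome footprints, the stretches of mRNA that a ribosome protects during nuclease digestion, were counted in unmodified cells (genotype wild type, n = 2 libraries) and in cells lacking METTL18 (genotype METTL18 knockout, n = 3 libraries), with no further treatment, allele or time named in the labels. METTL18 places a methyl group on a histidine in RPL3, which sits in the large subunit of the ribosome. Whether the knockout libraries come from 1 clone or several, and whether libraries of a group are separate cultures, is not stated in the labels, so a clone's own traits and the knockout cannot be told apart, and p-values reflect just the spread among these 5 libraries, which may be technical.

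C2H2 zinc finger proteins bind DNA through a row of small zinc-holding modules, the fingers, each of which contacts a few bases. Most of the proteins encoded in these clusters also carry a KRAB domain, which recruits the corepressor TRIM28 and, through it, the histone methyltransferase SETDB1 and heterochromatin proteins, and many KRAB zinc finger proteins bind and silence transposable elements. The genes arose by tandem duplication, so neighbours resemble each other in sequence, and the bodies of such genes are themselves often covered by the repressive mark that SETDB1 lays down.

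Of that description, only fingers, the KRAB domain and shared sequence were looked for in the 43 genes. A search of the translated coding sequences found 3 to 29 fingers per protein, with a median of 14, and 38 of 43 matched a pattern for the KRAB A box. The 5 without a match were ZNF146, ZNF260, ZNF345 and ZNF781, each with its whole coding sequence in 1 exon, and ZNF180. ZNF850 had the most fingers, 29, and ZNF781 the fewest, 3. Coding GC content had a median of 41.8%, against 52.7% over all genes of the table. Footprints are short, so shared sequence matters for counting: the share of 28-base coding windows found in no other gene of the table had a median of 94.0%, and 29 of the 43 genes reached 90%. Among tested members the median was 95.8% in 19q13.12 and 89.7% in 19q13.31.

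The least distinct genes were the neighbours ZNF585A and ZNF585B, with 43.4% and 43.6% of windows unique. Their coding sequences, each 2307 bases long, differ at 90 positions (96.1% identity) and share 1280 windows. A 90-base stretch of both, positions 130 to 219 of the coding sequence (sense strand, from the GENCODE transcripts), shows how few letters separate them, with capitals at the 4 positions that differ.
ZNF585A: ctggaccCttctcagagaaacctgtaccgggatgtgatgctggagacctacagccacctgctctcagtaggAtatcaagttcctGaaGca
ZNF585B: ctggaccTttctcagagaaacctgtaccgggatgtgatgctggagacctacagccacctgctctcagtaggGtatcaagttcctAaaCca
How the authors' counting treated footprints that match both genes is not stated, and the split between these genes is therefore uncertain. Other members shared less with any 1 partner, at most 10.2% (ZNF222 with ZNF230).

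Upstream sequence was read from RefSeq for the 38 members with a start site there (GRCh38.p14), over the 250 bases before it. For each member the start site nearest its counted transcript was used. These windows held a median of 16 CpG dinucleotides, against 11 in the windows of 27305 genes. That background takes 1 start site per RefSeq gene and is not limited to genes of the table, so the sets are unlike. ZNF404, which had 1 count in the wild-type libraries, had the fewest, 1 CpG, in a window of 38.4% GC. The stretches of these windows that touch no annotated exon are shown for the 3 members with the largest fold changes and for the 1 member that fell, 5′ to 3′ on the strand of the gene, which is the minus strand for each, with CpG in capitals.
ZNF404: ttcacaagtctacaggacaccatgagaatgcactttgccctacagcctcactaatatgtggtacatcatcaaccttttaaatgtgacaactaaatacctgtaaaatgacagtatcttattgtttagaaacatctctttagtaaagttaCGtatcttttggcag
ZNF850: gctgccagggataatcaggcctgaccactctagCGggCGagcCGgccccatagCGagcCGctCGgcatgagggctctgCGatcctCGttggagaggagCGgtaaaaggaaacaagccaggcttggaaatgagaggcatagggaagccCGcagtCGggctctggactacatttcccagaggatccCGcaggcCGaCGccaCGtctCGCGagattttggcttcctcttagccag
ZNF607: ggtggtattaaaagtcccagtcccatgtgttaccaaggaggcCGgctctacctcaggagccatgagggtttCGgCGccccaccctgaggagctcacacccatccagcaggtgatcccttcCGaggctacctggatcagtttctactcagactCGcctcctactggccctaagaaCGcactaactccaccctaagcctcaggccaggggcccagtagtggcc
ZNF112: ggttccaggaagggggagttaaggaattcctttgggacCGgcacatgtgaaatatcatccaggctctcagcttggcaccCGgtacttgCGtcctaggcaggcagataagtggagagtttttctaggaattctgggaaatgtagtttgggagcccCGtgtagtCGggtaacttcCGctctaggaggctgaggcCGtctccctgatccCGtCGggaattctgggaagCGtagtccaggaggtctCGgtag
They lie at chr19:43884052-43884214 (ZNF404), chr19:36772826-36773057 (ZNF850), chr19:37719791-37720011 (ZNF607) and chr19:44356683-44356930 (ZNF112). Over the whole 250-base windows ZNF850 held 19 CpG, ZNF607 10 and ZNF112 11, so the gene that fell and those that rose were not set apart by this count. Among members with a window, the 22 that rose had a median of 17.5 CpG and the 11 that were tested and did not rise a median of 15. Across the 33 tested members with a window, CpG number and log2 fold change had a Pearson r of -0.19 and a Spearman rho of 0.06, as a description.

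Motif letters in the same windows, searched on both strands, were CCAAT (the NF-Y motif) in 18.4% of the 38 members and 33.0% of all windows, GGGCGG (Sp1) in 34.2% and 42.3%, and TATAAA in 0 members and 11.1% of windows. CGCATGCG, the palindromic NRF1 motif, stood in 4 of the 38 members (10.5%) and in 1.86% of all windows, and the longer motif of YY1 in 0 members and 0.36% of windows. A match here describes letters and not a bound site.

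Levels below are CPM (counts scaled to a common library size, here with TMM factors), given per library or as a group's mean ± SD. Per-gene tests are edgeR's quasi-likelihood test over all 11335 rows that passed the low-count filter, with Benjamini-Hochberg adjusted p, and a gene is said to rise or fall where that p is under 0.05. The wild-type libraries held 4887380 to 5302160 counts and the knockout libraries 16339574 to 17629199, so that the knockout was 3.33-fold deeper on average. A footprint count combines the amount of an mRNA with the ribosomes on it, and in bulk samples fewer expressing cells and less RNA per cell cannot be told apart. METTL18 itself had 5.56 and 5.85 CPM in wild-type cells and 2.18, 1.97 and 2.16 in the knockout, which on the log2 scale is -1.44 (SE 0.25, adjusted p = 2.00e-06). The part of the gene that was disrupted is not given, so these remaining footprints only partly check the labels. Genes of 8 pluripotent markers summed to 689 to 720 CPM in wild-type cells and 967 to 1038 in knockout cells. Most of that sum was SOX2 (553 against 538 CPM), which did not pass, and the other 6 tested rose, several far more than the sum. ZFP42, LIN28A and NANOG had 0 counts in both wild-type libraries and means of 142, 19.6 and 0.97 CPM in the knockout. They met the low-count filter through the knockout libraries alone, so a call of these genes could only be a rise. TDGF1, L1TD1 and DPPA4 rose by 4.62, 3.54 and 0.84 on the log2 scale. POU5F1, the defining marker, had 0 counts in wild-type cells and at most 1 per knockout library. Of 12 blood-lineage markers 6 were in the table, with CD33 at 0 in every library. They summed to 26.1 to 28.5 CPM in wild-type cells against 60.9 to 69.5 in the knockout. Only 2 of them were tested, of which 1 rose (log2 fold change 1.87) and 1 fell (-0.50). The part of these shifts in the results below was not tested.

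Most measured members of both clusters had more footprints in the METTL18 knockout. Of the 35 tested, 24 rose, 1 fell (ZNF112) and 10 did not pass; across all genes tested 37.8% rose, 36.6% fell and 74.4% passed in either direction. The share of members that passed, 71.4%, was thus near that of all genes, and their direction was 24 to 1, where all genes split 4288 to 4143. Their median log2 fold change was 0.83, against 0.02 over all genes. In 20 of the 35 it lay above the upper quartile of all genes (0.57) and in 1 below the lower quartile (-0.61). All 3 knockout libraries were above both wild-type libraries in 25 members and below both in 3, and the groups overlapped in 7; over all genes those shares were 42.5% and 41.0%, 83.5% in all. A rise of more than 1 on the log2 scale that passed the test was seen in 17 members and in 12.8% of all genes. When a fold above 1.5 was itself tested, 15 members rose and 0 fell, where 17.7% and 18.8% of all genes did. The members that rose include ZNF404, which met the filter through its knockout libraries alone. The 8 members that the filter left out held too few counts for a test and are given below by their counts.

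Scaling moved these counts. With total counts alone as the scale, which moved the median of all genes to -0.26, 17 members rose and 3 fell, while all genes split 2982 to 5597. ZNF566, ZNF382, ZNF540, ZNF155, ZNF226, ZNF235 and ZNF180 then no longer passed. With knockout counts drawn down to wild-type depth, 22 rose and 1 fell of 31 tested, but these were not all the same genes. The 1 that fell was then ZNF573 (-0.56), and ZNF112 (-0.53) did not pass. ZNF222 (0.70) rose, ZNF226 (0.22) did not pass, and ZNF404 and ZNF540 were not tested.

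**Figure D1:**
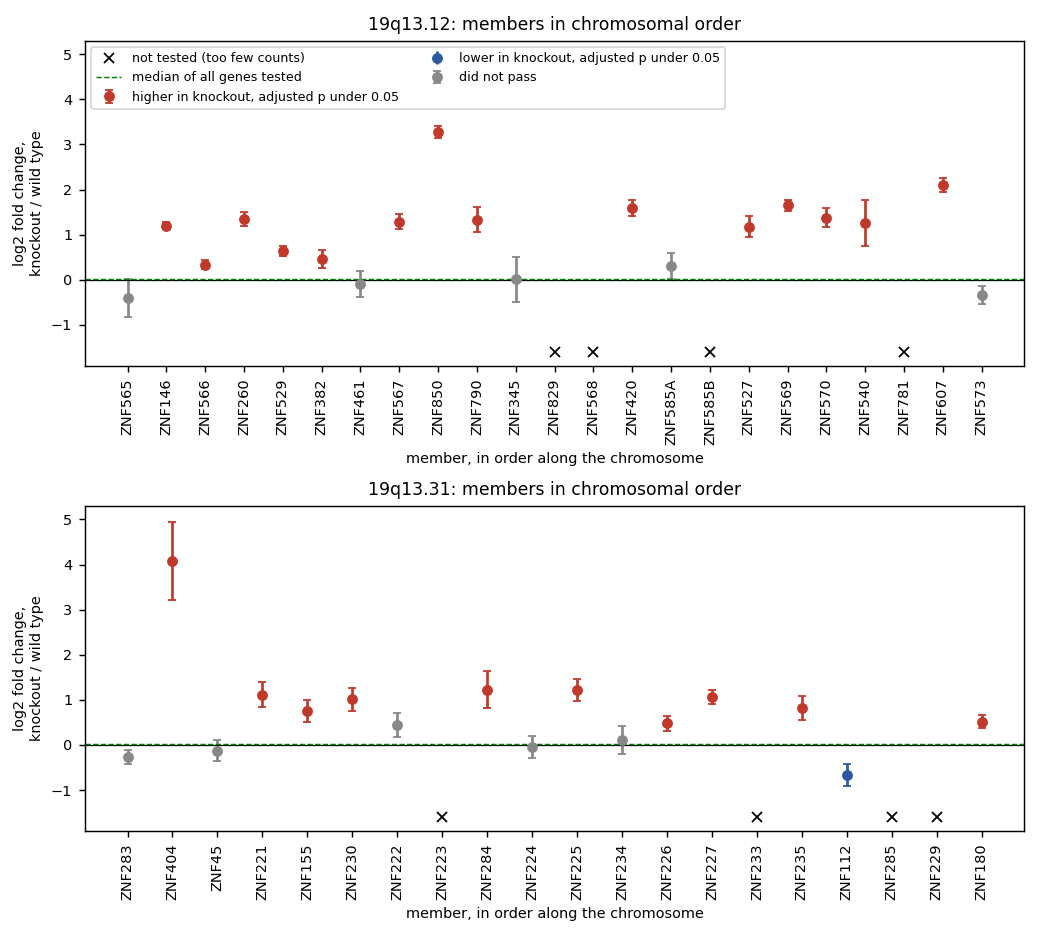
Log2 fold change (knockout over wild type) of each tested member with its standard error, in chromosomal order in 19q13.12 (upper) and 19q13.31 (lower); red rose, blue fell, grey did not pass, crosses were not tested and the dashed line is the median of all genes tested (0.02). Genes that rose and genes that did not are interleaved along both clusters, and the ZNF404 value rests on 1 wild-type count.

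In 19q13.12, 14 of 19 tested members rose, 0 fell and 5 did not pass, with a median log2 fold change of 1.20. ZNF850, a KRAB gene (ENST00000591344) at chr19:36743485-36772814, moved most. It had 5.89 and 8.42 CPM in wild-type cells and 73.0, 72.7 and 60.5 in the knockout. Every knockout library stood far above both wild-type libraries. The log2 fold change was 3.27 (SE 0.14, adjusted p = 1.26e-21), or 9.67-fold.

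ZNF607 (chr19:37696363-37719790), another KRAB gene, had 5.72 and 5.31 CPM in wild-type cells and 23.0, 24.3 and 24.2 in the knockout. Its groups were tight and far apart, at 2.11 on the log2 scale (SE 0.15, adjusted p = 5.80e-16). ZNF569 (chr19:37411155-37467437) had 9.26 and 11.9 CPM against 33.7, 32.7 and 33.2, and the change was 1.66 (SE 0.12, adjusted p = 1.37e-15). ZNF420, also known as Apak, a KRAB protein known to restrain p53, had 5.05 and 4.57 CPM against 14.5, 15.2 and 13.8. Its log2 fold change was 1.58 (SE 0.18, adjusted p = 1.35e-10). ZNF570, which lies head to head with ZNF569, had 3.03 and 6.22 CPM against 10.5, 13.6 and 11.5. The wild-type libraries of ZNF570 stood well apart, yet the groups did not overlap (log2 fold change 1.38, SE 0.21, adjusted p = 1.80e-07).

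ZNF146, or OZF, a protein made almost entirely of fingers that is known for raised levels in some tumours, was the most abundant member. It had 42.1 and 43.9 CPM in wild-type cells and 95.1, 102 and 99.0 in the knockout. With 490 wild-type counts it was also the most precisely measured, at 1.20 on the log2 scale (SE 0.07, adjusted p = 1.69e-18). ZNF566 had 21.2 and 20.9 CPM against 25.2, 27.9 and 26.7, a small change of 0.34 (SE 0.11, adjusted p = 0.00441) without overlap. ZNF529 had 17.7 and 21.2 CPM against 30.8, 32.1 and 28.1, a change of 0.65 (SE 0.11, adjusted p = 1.75e-06). These are KRAB genes with few fingers for the cluster, 7 in ZNF566 and 9 in ZNF529.

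The other 6 that rose in 19q13.12 were ZNF260, ZNF790, ZNF567, ZNF540, ZNF527 and ZNF382, with log2 fold changes of 1.35, 1.33, 1.29, 1.26, 1.18 and 0.45. ZNF260 lacks a KRAB match. ZNF540 rested on 5 and 3 wild-type counts (adjusted p = 0.0216), and ZNF382, a KRAB repressor reported as silenced by DNA methylation in some cancers, had an adjusted p of 0.0366. Both calls were lost with DESeq2 and when either wild-type library was left out.

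Of the 5 members of 19q13.12 that did not pass, ZNF345 had 0.842 and 1.10 CPM in wild-type cells and 0.924, 0.860 and 1.14 in the knockout (log2 fold change 0.02, SE 0.50, adjusted p = 0.980). It had 11 wild-type counts in all, so the error of this value is wide. ZNF461, originally described as a gonadotropin-induced repressor of the ovary, had 2.86 and 3.66 CPM against 2.58, 2.70 and 3.87 (-0.09, SE 0.29, adjusted p = 0.789). ZNF565 had 1.35 and 2.01 CPM against 1.45, 0.799 and 1.52 (-0.41, SE 0.42, adjusted p = 0.376). In these 3 genes the groups overlapped. ZNF573 had all knockout libraries below the wild type, 6.74 and 7.13 CPM against 5.15, 5.78 and 5.46 (-0.34, SE 0.19, adjusted p = 0.106). ZNF573 was called lower with total-count scaling (-0.61) and with thinned knockout libraries (-0.56). ZNF585A had 2.86 and 2.74 CPM against 4.42, 3.32 and 2.73, with knockout replicate 3 at the wild-type level (0.31, SE 0.29, adjusted p = 0.340).

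Its near-copy ZNF585B had 0 counts in both wild-type libraries and 9, 6 and 5 in the knockout. Set against 3 counts in the wild-type libraries together (0.263 CPM), that is at least 1.61-fold higher, with no test. ZNF585A, by contrast, had 17 and 15 wild-type counts, although 56.1% of the coding windows of these genes are the same. ZNF568, whose mouse counterpart silences a placental transcript of Igf2, had 0 counts in wild-type cells and 1, 2 and 2 in knockout cells. ZNF781 had 0 in wild-type cells and 3, 2 and 1, and ZNF829 had 4 and 1 against 3, 2 and 4. These 3 sit at or near the floor, so no change could be detected at this depth.

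In 19q13.31, 10 of 16 tested members rose, 1 fell and 5 did not pass, with a median log2 fold change of 0.63. ZNF404 (chr19:43872363-43883964), a KRAB gene, had 0 and 1 counts in wild-type cells and 25, 22 and 31 in knockout cells. It met the low-count filter through its knockout libraries alone, so a call of this gene could only be a rise. With that limit it passed the test (adjusted p = 3.40e-05). With thinned knockout libraries it was not among the members tested. The ratio of pooled levels was 18.9, with an exact 95% interval of 3.29 to 754 for counting error only. The knockout level itself was low, 1.66 ± 0.31 CPM (SD, n = 3).

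Apart from ZNF404, no rise in this cluster was above 2.34-fold. ZNF284 had 1.35 and 0.732 CPM in wild-type cells and 2.64, 2.33 and 2.47 in the knockout (log2 fold change 1.23, SE 0.40, adjusted p = 0.00552). ZNF225 had 2.19 and 3.66 CPM against 6.93, 6.88 and 6.34 (1.21, SE 0.24, adjusted p = 2.45e-05). ZNF221 had 1.85 and 2.74 CPM against 5.08, 4.73 and 5.08 (1.12, SE 0.27, adjusted p = 0.000356). In each of these KRAB genes the knockout libraries lay close together and above both wild-type libraries, which differed more from each other. ZNF227 had 6.40 and 6.59 CPM against 13.9, 14.1 and 12.8, a clear separation (1.06, SE 0.16, adjusted p = 2.53e-07). ZNF180, which has no KRAB match, had 12.0 and 9.70 CPM against 14.9, 14.9 and 16.6 (0.51, SE 0.14, adjusted p = 0.00148). ZNF180 did not pass without wild type replicate 2 (0.37), nor did ZNF284 (0.87).

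ZNF230, ZNF235, ZNF155 and ZNF226 made up the rest of those that rose, by 1.01, 0.83, 0.75 and 0.48 on the log2 scale. The calls of ZNF155, ZNF235 and ZNF226 were lost without wild type replicate 1, at 0.73, 0.63 and 0.35. ZNF155 and ZNF230 are also among the genes with the most shared windows in this cluster, with 78.3% and 83.2% unique.

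ZNF112 (chr19:44326555-44356674), a KRAB gene with 13 fingers, was the 1 member that fell. It had 5.56 and 4.39 CPM in wild-type cells and 2.97, 3.75 and 2.66 in the knockout, all below the wild type. Its log2 fold change was -0.67 (SE 0.25, adjusted p = 0.0139). The call was lost with DESeq2 (-0.68), with thinned knockout libraries (-0.53) and without wild type replicate 1 (-0.49).

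ZNF283 had the highest wild-type mean of 19q13.31, and its knockout libraries lay below it, 11.1 and 14.1 CPM against 9.97, 10.3 and 11.0 (-0.26, SE 0.15, adjusted p = 0.103). It was called lower with total-count scaling (-0.54), with a filter at a mean CPM of 10 (-0.32) and without wild type replicate 1 (-0.43). ZNF222 lay the other way, 3.20 and 2.56 CPM against 4.23, 3.44 and 4.19 (0.45, SE 0.27, adjusted p = 0.133), and was called higher with thinned libraries (0.70). In the remaining 3 the groups overlapped. ZNF224, a KRAB repressor known to act on the aldolase A gene and to bind the tumour suppressor WT1, had 5.05 and 4.94 CPM against 6.08, 4.73 and 3.74 (-0.05, SE 0.24, adjusted p = 0.863). ZNF234 had 2.86 and 3.11 CPM against 3.90, 3.81 and 1.97, knockout replicate 3 well below the other two (0.11, SE 0.31, adjusted p = 0.754). ZNF45 had 4.21 and 4.76 CPM against 4.03, 3.87 and 4.38 (-0.13, SE 0.23, adjusted p = 0.626).

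The members of 19q13.31 with too few counts for a test were ZNF223 (1 and 0 counts in wild-type cells, 3, 1 and 0 in the knockout), ZNF233 (1 and 0 against 1, 6 and 2), ZNF285 (3 and 1 against 5, 3 and 3) and ZNF229 (0 and 0 against 2, 0 and 0). The ratio for ZNF233 was 2.18, with a counting interval of 0.30 to 95.4, which spans no change. ZNF229 was at or under the floor in both groups.

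**Figure D2:**
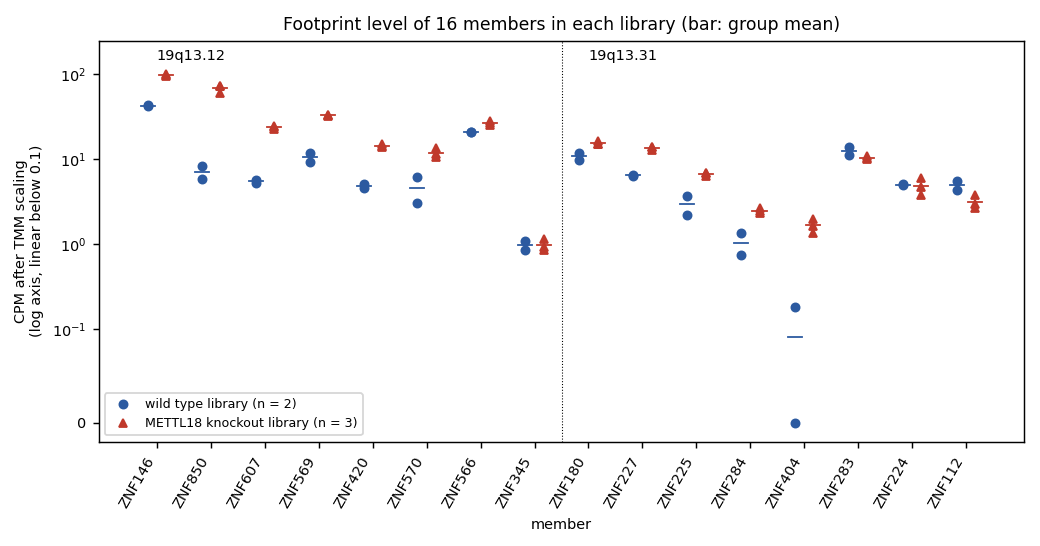
Level of 16 members in every library, in CPM after TMM scaling on a log axis that is linear below 0.1; circles are the 2 wild-type and triangles the 3 knockout libraries, and bars mark group means. ZNF850 and ZNF607 show the widest gaps in 19q13.12, ZNF345 and ZNF224 overlap, and ZNF112 is the member called lower.

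To compare genes with one another, CPM was divided by coding length in kilobases. ZNF146 led in both groups, at 49.1 ± 1.46 CPM per kb in wild-type cells (SD, n = 2) and 113 ± 3.95 in knockout cells (SD, n = 3). In the wild type ZNF566 (16.8 ± 0.20) and ZNF529 (11.5 ± 1.48) came next, each apart from its neighbours by more than the spread. ZNF283 (6.19 ± 1.03), ZNF260 (5.96 ± 0.05), ZNF180 (5.21 ± 0.77) and ZNF569 (5.14 ± 0.90) followed and did not differ beyond their spread. In the knockout ZNF566 (21.2 ± 1.09) and ZNF850 (21.0 ± 2.18) were level with each other, followed by ZNF529 (17.96 ± 1.21) and ZNF569 (16.1 ± 0.23). ZNF850 went from rank 18 of the 43 members in wild-type cells (2.19 ± 0.55 CPM per kb) to rank 3. The median tested member of 19q13.12 went from 2.64 to 7.01 CPM per kb and that of 19q13.31 from 2.02 to 2.80.

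Most of the order was kept. Over the 35 tested members, log2 level per kb in wild-type cells and in the knockout had a Pearson r of 0.81 and a Spearman rho of 0.83, as a description across genes of the same libraries. Correlations of gene features with fold change varied in size, and a single extreme gene enters the values of each cluster. The values are given here as descriptions (n = 19 in 19q13.12 and 16 in 19q13.31). For coding GC content r was -0.28 (rho -0.19) in 19q13.12 and -0.61 (rho -0.04) in 19q13.31. For finger number r was 0.51 (rho 0.34) in 19q13.12 and -0.09 (rho -0.14) in 19q13.31. For coding length r was 0.54 (rho 0.40) in 19q13.12 and -0.42 (rho -0.30) in 19q13.31. For the share of unique windows r was 0.21 (rho 0.07) and 0.10 (rho -0.05). For the wild-type level per kb, which shares the wild-type counts with the fold change, r was 0.07 (rho 0.16) in 19q13.12, -0.84 (rho -0.60) in 19q13.31 and -0.31 (rho -0.04) over both. The extreme gene of 19q13.31 is ZNF404, with the lowest coding GC there (36.9%), 1 wild-type count and a log2 fold change of 4.08. That of 19q13.12 is ZNF850, with the most fingers (29), the longest coding sequence (3270 bases) and 3.27. Values without these genes were not computed, so whether the clusters differ was not tested.

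**Figure D3:**
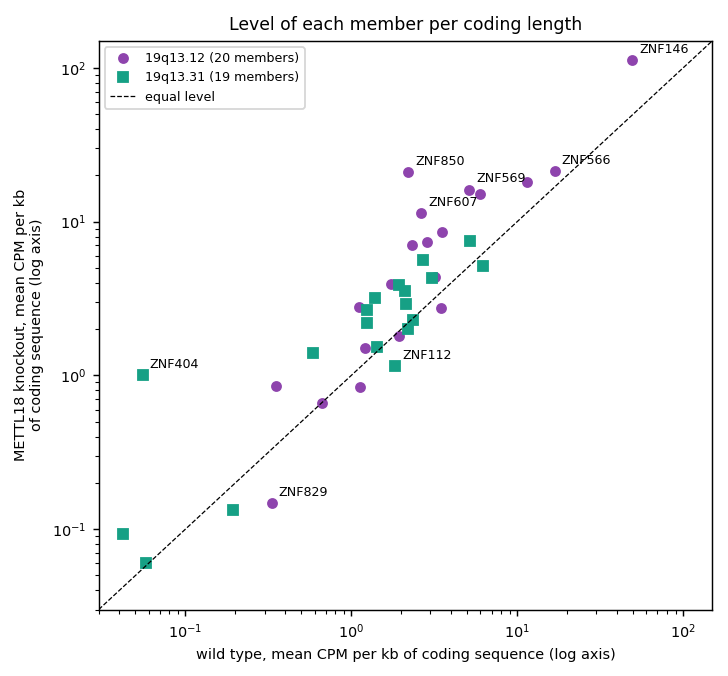
Mean level of each member per kb of coding sequence in wild-type cells (horizontal) and the knockout (vertical), both on log axes; circles are 19q13.12, squares 19q13.31, and the dashed line marks equal levels. The 39 members with a wild-type count are drawn; ZNF850, ZNF607 and ZNF404 lie farthest above the line, and ZNF146 is highest on both axes.

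As a group the members held a larger share of all footprints in the knockout. Their summed level was 221 and 241 CPM in wild-type libraries and 482, 494 and 467 in knockout cells, 231 ± 14.3 (SD, n = 2) against 481 ± 13.27 (SD, n = 3), a ratio of 2.08. The 19q13.12 genes went from 158 ± 11.2 to 380 ± 12.5 CPM (2.41-fold) and the 19q13.31 genes from 73.4 ± 3.06 to 102 ± 2.65 (1.38-fold). In both clusters the groups of libraries did not overlap. ZNF146 made up 18.6% of the sum in wild-type cells and 20.5% in the knockout, and ZNF850 rose from 3.08% to 14.3%. Without ZNF850 the ratio was 1.84 and without ZNF146 2.03. Scaled by total counts alone, which gives the share of all counts, the ratio was 1.72 over both clusters. By that scale it was 1.99 in 19q13.12 and 1.15 in 19q13.31.

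Neighbours along the chromosome were no closer in fold change than other pairs of their cluster. Differences in log2 fold change between adjacent tested members had a median of 0.94 in 19q13.12 (18 pairs), against 0.90 over all 171 pairs there, and of 1.10 in 19q13.31 (15 pairs), against 0.71 over all 120 pairs. In 19q13.12, 4 pairs of members start within 3 kb of each other on opposite strands. The counted transcripts of ZNF565 and ZNF146 overlap, with starts 479 bases apart. At the RefSeq starts used above (36215084 and 36215106) these genes do not overlap. ZNF146 rose (1.20) while ZNF565 had -0.41 and did not pass. ZNF790 and ZNF345 overlap, with starts 426 bases apart, and ZNF790 rose (1.33) while ZNF345 had 0.02. ZNF569 and ZNF570, 1643 bases apart, both rose, and ZNF829 and ZNF568, 50 bases apart, were both too low to test. Whether the 2 genes of a pair differ from each other was not tested.

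Genes around the clusters gave a different picture from the zinc finger genes within. Inside 19q13.12 the table held 3 more C2H2 genes, of which ZFP30 rose (10.4 ± 1.11 to 26.7 ± 1.57 CPM, log2 fold change 1.37), ZFP14 did not pass (0.14) and ZFP82 was too low to test, and the table held no further gene between the members of either cluster. Within 1 Mb on either side, genes with fewer than 2 fingers were taken as flanks, a set chosen after seeing the data. Around 19q13.12, 12 of 33 tested flanking genes rose and 10 fell, with a median log2 fold change of 0.12. Around 19q13.31, 11 of 32 rose and 12 fell, with a median of -0.09. The flanks thus lay near the median of all genes, 0.02, and the members at 1.20 and 0.63.

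Among the ZNF genes elsewhere, those of 19p12 rose in 26 of 26 cases with a median log2 fold change of 2.77, and those of 19p13.2 in 27 of 31 with a median of 1.49. The 19q13.41 genes rose in 23 of 25 (median 1.20) and the 19q13.43 genes in 30 of 41 (median 1.19). The largest log2 fold changes were 11.6 in 19p12, 10.4 in 19p13.2, 9.59 in 19q13.41 and 9.44 in 19q13.43, against 4.08 among the members. A gene at or near 0 in wild-type cells can meet the filter through the knockout libraries alone and then only be called higher. How many genes of these clusters did so was not counted. On other chromosomes 107 of 199 rose and 29 fell, with a median of 0.43. The median of the 19q13.12 members was close to those of 19q13.41 and 19q13.43, and that of 19q13.31 was lower than in each of these chromosome 19 clusters; the differences between clusters were not tested.

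**Figure D4:**
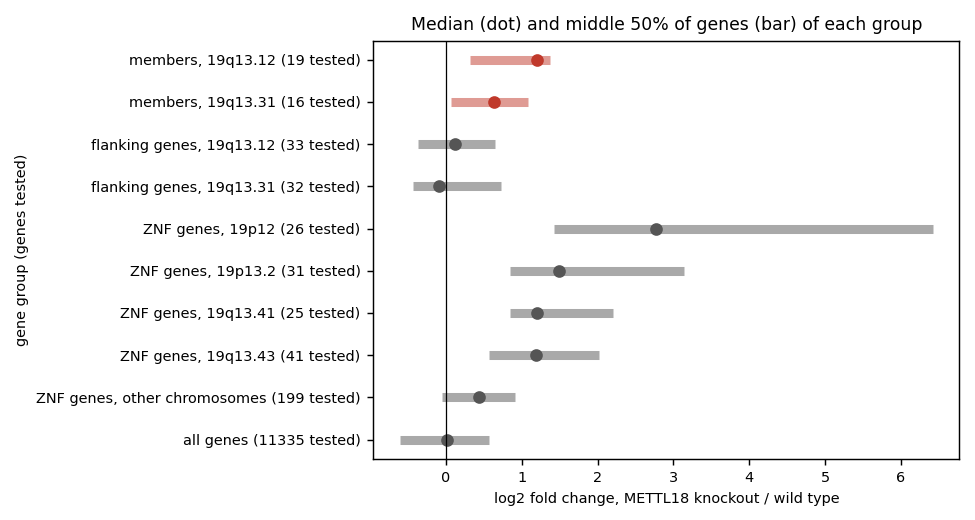
Median log2 fold change (dot) and middle 50% of tested genes (bar) for the members, the genes flanking each cluster within 1 Mb, ZNF genes of other clusters and chromosomes, and all genes. The members of 19q13.12 (median 1.20) and 19q13.31 (0.63) lie above their flanking genes (0.12 and -0.09) and below the ZNF genes of 19p12 (2.77).

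The machinery that KRAB proteins work with moved in both directions, as did all genes tested, of which 37.8% rose and 36.6% fell. In a list of corepressor and heterochromatin genes 16 of 29 tested rose (55.2%) and 8 fell (27.6%). Their median log2 fold change was 0.20. Whether the lists in this paragraph differ from all genes was not tested. TRIM28, the corepressor that KRAB domains bind, rose from 764 ± 8.26 to 1508 ± 77.5 CPM (0.98, SE 0.04, adjusted p = 5.27e-24), and SETDB1 from 46.9 ± 2.50 to 69.3 ± 2.55 (0.56, SE 0.08, adjusted p = 1.08e-08). CBX3, a heterochromatin protein, rose by 1.30, and HDAC1 and MTA1, of the NuRD complex that TRIM28 also recruits, had -0.72 and -1.34 and fell. In a list on the chromatin of zinc finger gene bodies 10 of 17 rose (58.8%) and 5 fell (29.4%). ZNF274, which binds the ends of many zinc finger genes and brings SETDB1 there, rose from 10.6 ± 0.74 to 56.3 ± 2.74 CPM (2.41, SE 0.11, adjusted p = 2.51e-22), and ATRX, a chromatin remodeller found on the same genes, had -0.51 and fell. Among DNA methylation genes 10 of 19 rose (52.6%) and 7 fell (36.8%). DNMT3L, a cofactor of de novo methylation, had 0 counts in both wild-type libraries and 1242, 1275 and 1446 in the knockout. A call of DNMT3L could thus only be a rise.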

How the data were processed

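Per the labels' protocols, RNase I was applied to lysates holding cycloheximide, a sucrose gradient gave the monosomes, and gel-selected footprints were cloned with adapters holding random bases. PolyA RNA is the molecule the labels give. Bowtie and hg38 are named, with no version, in the submitters' processing notes. Steps not given in the sources used here include the annotation, the counter, and the handling of reads that match several places and of duplicates. The authors deposited raw counts per transcript, with a symbol, in 1 table (14084 rows, 5 libraries).

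The tests used edgeR 4.0.16 under R 4.3.3 (TMM, robust quasi-likelihood fit, filterByExpr with a minimum count of 10 and total of 15, group as the term, adjusted p under 0.05). For a symbol on several rows the row with most counts was used. GENCODE release 29 gave coordinates for 99.2% of rows. The clusters' members and the gene lists were chosen with earlier results of these data known. Named with values in every library were the 5 largest rises and falls per cluster, the 3 highest levels per kb, the 3 largest adjusted p and members with a group at 0. Fibroblast markers (5 of 7 in the table) summed to 53.7 to 54.5 CPM in the wild type and 66.6 to 70.5 in the knockout. Epithelial ones (5 of 7) summed to 142 to 151 and 183 to 187. Some single markers moved far more than these sums. The 3 fibroblast markers tested rose, by 0.23 to 4.30 on the log2 scale. Of 3 epithelial markers tested 2 rose and 0 fell, with log2 fold changes from 0.23 to 6.97. With 0 counts in a group, the fold used a floor of 3 counts over it (0.263 CPM in the wild type, 0.0636 in the knockout); intervals cover counting error only. On simulated counts over 11271 genes, a 1.25-fold change was found in 26.5% of the genes given it and a 1.5-fold change in 75%. A 2-fold change was found in 94% and a 4-fold change in 95.8%. Of all calls 4.05% were false. These counts were drawn from wild-type means with a fixed dispersion, and 48 to 50 changed genes were tested per fold. In the data 74.4% of genes passed and many members had low counts, so these rates need not hold for the members. The alternatives were other scalings, DESeq2 1.42.0, limma-voom (limma 3.58.1), other filters, a required fold, thinning, a replicate block and each library left out. Replicate pairs differed by more than counting error (chi-square per degree of freedom 1.14 between the wild-type libraries and 2.73 to 3.48 between knockout libraries).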

Additional observations from a re-analysis of the deposited data

How the results depend on the processing

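No called member changed sign under any alternative run, but 5 that did not pass did: ZNF224 (-0.05; 0.11 with the replicate block), ZNF45 (-0.13; 0.07 with thinned libraries), ZNF234 (0.11; -0.16 with total-count scaling), ZNF345 (0.02; -0.25 with total-count scaling) and ZNF461 (-0.09; 0.09 without wild type replicate 2). Over all genes the split of 4288 higher and 4143 lower turned to 2982 and 5597 with total-count scaling, 4080 and 4360 with upper-quartile factors, 3846 and 3871 with thinned libraries and 2011 and 2129 with the required fold. Requiring a fold above 1.5 left 4140 genes of the table, 15 members, 5 members of 19q13.31 and 187 genes of the comparison lists, against 8431, 25, 11 and 317. A filter at a mean CPM of 10 left 12 members called (9 in 19q13.12, 3 in 19q13.31) and 156 list genes, with 11 members above 0 and a median log2 fold change of 1.19, since 12 members were tested. The median was 1.04 with no filter, where members at 0 in the wild type enter with fitted values, 0.56 with total-count scaling and 1.12 over members with at least 90% unique windows. The log2 ratio of summed CPM, 1.06, became 0.79 with total-count scaling, 1.02 with upper-quartile factors and, chosen after seeing the data, 0.88 without ZNF850.

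Leaving out 1 library at a time gave 7391 to 8284 genes called, 20 to 25 members, 12 to 14 in 19q13.12 and 8 to 11 in 19q13.31, 279 to 313 list genes, a median of 0.73 to 0.89, 27 to 29 members above 0 and a summed log2 ratio of 0.995 to 1.12; the lowest member counts were without wild type replicate 1 (20) and replicate 2 (21). DESeq2 called 21 members, losing ZNF382, ZNF540, ZNF226 and ZNF112. ZNF382 was also lost with limma-voom, upper-quartile and total-count scaling and without knockout replicate 2 or 3.

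Replicate numbers are shared by the groups, but same-numbered libraries deviated together with correlations of 0.01 and 0.02 in the 2 pairs, so the numbers were not taken as pairs. With the replicate block 24 members (ZNF382 lost) and 8476 genes were called. The wild-type depth, with 1 to 8 counts for several members, limits what could be seen of low members.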
